A study of Drosophila melanogaster with 64 samples.

Results

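The change of the injury effect between 1 h and 3 h after traumatic brain injury (TBI) was measured in fly heads as a difference of differences, TBI over sham at 3 h less TBI over sham at 1 h. The samples were chosen by label alone. They were the 12 samples from TBI and sham flies at these times that were prepared on library day 2, 3 in each of 4 groups, out of 64 samples in the series and 33 on that day. The groups were severe TBI at 3 h, sham at 3 h, severe TBI at 1 h and sham at 1 h. All were males of strain w1118, a Bloomington stock, injured or sham treated at 3 d of age, and each sample held polyA RNA of 20 whole heads. The labels call the samples biological replicates. Uninjured males of the same age and strain were sampled at time 0, and further TBI and sham groups of the same library day at 6, 12 and 24 h. A whole head holds brain, eyes, fat body, muscle and cuticle, so fewer cells of a type and less RNA per cell cannot be told apart in these data.

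Tissue damage in flies switches on JNK signalling, which acts through the AP-1 subunits encoded by kay and Jra, and the unpaired cytokines, which signal through JAK/STAT. Immediate-early genes are transcribed from factors already present in the cell, while genes that need newly made regulators come later. A difference of differences separates an effect that is still building from one that is passing, and it can be moved by the injured flies, by the sham flies or by both, so both were followed.

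Across the 12 libraries the gene counts came to 18.6 M to 42.4 M (median 24.3 M), and 74.0% to 78.4% of all reads fell in genes. Genes of the mitochondrial genome took 13.6% to 22.9% of the gene counts, with overlapping ranges in all 4 groups. Other measures set the shams of the 2 times apart. Reads in genes were 74.0% to 77.4% in shams at 3 h and 77.7% to 78.4% in shams at 1 h. Reads that aligned to several places were 4.78% to 8.13% in shams at 3 h and 4.04% to 4.29% in shams at 1 h. Both measures overlapped between TBI and sham at each time, while others did not. Reads that did not align were 11.06% to 11.68% after TBI and 10.23% to 11.05% in shams at 3 h. Aligned reads in no gene were 4.66% to 4.82% after TBI and 4.42% to 4.62% in shams at 1 h. The TMM scaling factors at 1 h were 0.881 to 0.9253 after TBI and 0.9258 to 0.970 in shams. The part of these differences in the TBI effects was not tested. Levels are given as CPM, read counts per library size in M after TMM scaling. Replicates differed more from each other in some groups than in others. The chi-square per gene between replicate pairs, which grows with depth, was 71.3 to 110 in TBI and 99.5 to 144 in shams at 3 h, and 17.6 to 26.1 in TBI and 24.2 to 50.01 in shams at 1 h. By correlation of log2 CPM, sham 3 h replicates 2 and 3 were each nearest to a sham 1 h library, and sham 1 h replicate 3 to a sham 3 h library. Markers of neurons, photoreceptors, glia and muscle were present in every library. The 4 fat body markers (apolpp, FASN1, Lsp2 and AkhR) summed to 2165 to 3535 CPM after TBI and 5649 to 8223 CPM in shams at 3 h, and to 3630 to 5543 CPM after TBI and 6606 to 9715 CPM in shams at 1 h. The 4 digestive tract markers summed to at most 7.88 CPM in any library, with betaTry at 0 in all 4 groups, and the 4 male reproductive tract markers to at most 0.491 CPM, with Acp26Aa at 0 in all 4 groups.

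Of 10739 genes tested, 73 had a TBI effect that differed between 3 h and 1 h (0.680% of genes tested, edgeR quasi-likelihood test, Benjamini-Hochberg adjusted p under 0.05), and 1098 had an unadjusted p under 0.05. The change was positive in 43 genes (0.400%) and negative in 30 (0.279%), a split that was 34 and 34 with RLE scaling and 17 and 32 without TBI 3 h replicate 2. Negative genes outnumbered positive ones in 6 of the 12 fits that left out 1 library. The smallest change among them was 0.49 on the log2 scale, and the median was 1.18 among the positive and −0.92 among the negative genes. In all 73 the 3 TBI samples at 3 h, each taken against the mean of its shams, lay beyond the 3 TBI samples at 1 h taken in the same way, which was so for 16.1% of all genes in the positive and 13.7% in the negative direction. The 73 were chosen on these same samples, so their separation follows in large part from the choice and is no independent check. Sorted by the time with the larger absolute effect, 40 genes had a rise larger at 3 h, 22 a fall larger at 3 h, 8 a rise larger at 1 h and 3 a fall larger at 1 h. The effect at the other time was often on the other side of 0, in 23 of the 40, 9 of the 22, 5 of the 8 and 2 of the 3. Of the 43 positive genes 26 had an effect below 0 at 1 h. In most the effect passed at 3 h alone: 34 of the positive genes were higher after TBI only at 3 h and 21 of the negative genes lower only at 3 h. For scale, 1775 genes (16.5%) passed for the TBI effect at 3 h, 1131 higher (10.5%) and 644 lower (6.00%), and 794 (7.39%) at 1 h, 535 higher (4.98%) and 259 lower (2.41%). The count at 1 h was 498 without TBI 1 h replicate 1, 526 without sham 1 h replicate 1 and 517 without sham 1 h replicate 3. These effects share their samples with the difference between them.

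**Figure D1:**
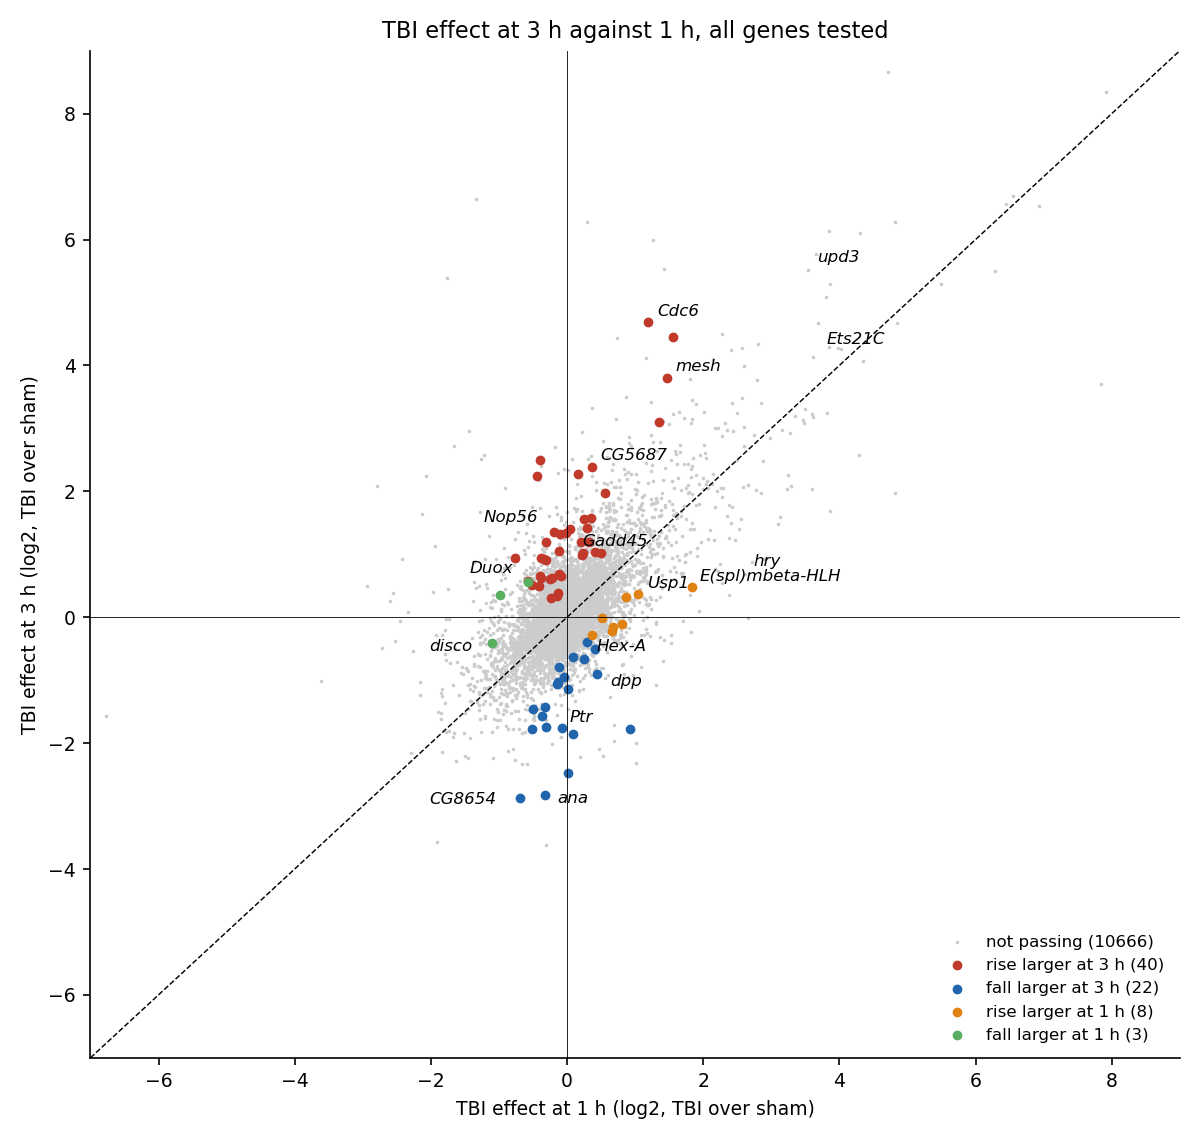
TBI effect at 3 h (vertical axis, log2 of TBI over sham) against the effect at 1 h (horizontal axis) for the 10739 genes tested, 1 point per gene. Coloured points are the 73 genes whose effect differed between the times, and the dashed line marks equal effects: the 40 genes with a rise larger at 3 h lie above it on the upper side and the 22 with a fall larger at 3 h lie below it.

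The number of genes that passed depended on single libraries. It was 16 without sham 3 h replicate 1, 21 without TBI 1 h replicate 2, 25 without TBI 3 h replicate 1, 26 without sham 1 h replicate 2, 29 without sham 3 h replicate 3, 34 without sham 1 h replicate 1, 35 without TBI 1 h replicate 3 and 36 without sham 1 h replicate 3. The sign of the change held in all 73 genes in each of the 12 fits that left out 1 library. In every such fit 13 genes passed, which were ana, CG8654, Ptr, dpp, Hex-A, CG13252, CG12768, CG5687, tnc, CG3168, CG34396, Lapsyn and CG7246. For the other genes of the 73 named below, the number of these 12 fits in which the gene passed is given once. With the replicate number as a block 48 genes passed. Same-numbered TBI and sham samples at 1 h deviated from their group means together (r = 0.311 to 0.507), while between any other 2 of the 4 groups at least 1 of the numbers did not. With the block 26 of the 73 no longer passed. Of the genes named below these were mesh, CG1698, Nopp140, Mys45A, Nnp-1, Noc2, l(2)k09022, kz, CG32344, Ski6, capt, AdoR, stumps, Gk2, eyg, Cad96Ca, Pino, CG3032, RNF220, CG12499 and mtDNA-helicase.

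Exons of 19 of the 73 genes overlap exons of another gene in BDGP6.54, on the same strand in 3 and on the opposite strand in 18. Those named below are ana, CG5687, CG6356, CG1698, asRNA:CR44205, Nop60B, Nopp140, Mys45A, Nnp-1, Noc2, kz, Ski6, rhea, capt, AdoR and mtDNA-helicase. Nop60B holds 6 snoRNA genes on its own strand. No source says whether counting used strand, so how reads of the overlapping exons were assigned is not known, and the values of these genes are uncertain. Reads classed as ambiguous, 1.99% to 2.45% of all reads in the 12 libraries, were left out of the gene counts.

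Among the falls larger at 3 h in genes averaging 2 CPM or more, the largest change was that of ana, which encodes a secreted glial glycoprotein named for its role in holding neuroblasts at rest (chromosome 2R, 9062295 to 9077554, plus strand, BDGP6.54). Its level was 2.48, 3.73 and 3.25 CPM after TBI at 3 h, against 22.9, 19.9 and 23.6 CPM in shams. At 1 h it was 15.6, 18.4 and 18.6 CPM after TBI, against 20.5, 21.7 and 23.5 CPM in shams. The TBI samples at 3 h lay far below every other sample, while the 1 h groups were close to each other without overlap. The effect of TBI was −2.82 ± 0.26 (log2, SE) at 3 h and −0.32 ± 0.24 at 1 h, a change of −2.50 ± 0.35 (edgeR adjusted p = 0.000448). The gene that overlaps exons of ana on the other strand is asRNA:CR45924. Below 2 CPM, lncRNA:CR44493 had a larger negative change of −2.70 (7 of 12 fits), at 0.158 to 0.235 CPM after TBI and 0.517 to 0.796 CPM in shams at 3 h.

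Ptr, a patched-related transmembrane protein gene (chromosome 2R, 6181748 to 6196320, minus strand), had 7.31, 7.31 and 6.59 CPM after TBI at 3 h, against 26.8, 24.4 and 20.8 CPM in shams. At 1 h its levels were 19.8, 17.3 and 18.9 CPM after TBI and 18.4, 19.2 and 21.5 CPM in shams, and these groups overlapped. The change was −1.69 ± 0.24 (adjusted p = 0.000448). CG8654 (chromosome 2R, 19979242 to 19984895, plus strand) averaged 6.28 ± 0.575 CPM after TBI and 45.8 ± 5.11 CPM in shams at 3 h, and 25.3 ± 1.99 CPM after TBI and 40.6 ± 1.21 CPM in shams at 1 h (SD, n = 3 each). Its effect at 3 h, −2.87, was beyond that of ana. Its change was −2.19 ± 0.35 (adjusted p = 0.00235), and its effect at 1 h, −0.68 ± 0.24, did not pass (adjusted p = 0.0923).

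Hex-A, the hexokinase that phosphorylates glucose at the entry to glycolysis (chromosome X, 9585675 to 9589813, plus strand), had 258, 307 and 299 CPM after TBI at 3 h, against 481, 414 and 479 CPM in shams. The 1 h samples had 501, 584 and 554 CPM after TBI, against 443, 471 and 461 CPM in shams. TBI samples were thus the lowest at 3 h and the highest at 1 h, with a change of −0.92 ± 0.14 (adjusted p = 0.000957). The effect was −0.67 ± 0.10 at 3 h, and at 1 h it was 0.25 ± 0.10 and did not pass (adjusted p = 0.136). Of 17 measured genes of glycolysis and sugar metabolism Hex-A alone passed for the change, beside 0.680% of all genes. The median change was −0.06 beside 0.03 over all genes. Of the 17, 4 were lower and 1 higher after TBI at 3 h, beside 6.00% and 10.5% of all genes. At 6 h 10 were lower and 0 higher, with a median effect of −0.44, beside 4.26% and 7.88% of all genes.

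CG10226, an ABC transporter gene, also had a fall larger at 3 h. It averaged 49.6 ± 8.90 CPM after TBI and 166 ± 23.1 CPM in shams at 3 h, and 128 ± 15.3 CPM after TBI and 158 ± 37.9 CPM in shams at 1 h (SD, n = 3 each). Its change was −1.43 ± 0.28 (adjusted p = 0.0167, 11 of 12 fits). mnd, an amino acid transporter gene, had 15.4, 14.6 and 11.8 CPM after TBI and 42.3, 39.9 and 41.02 CPM in shams at 3 h, and its change was −1.19 ± 0.27 (adjusted p = 0.0365, 3 of 12 fits). CG6356, a gene of the organic cation transporter type, changed by −1.26 ± 0.26 (adjusted p = 0.022, 8 of 12 fits). Its effect was −1.78 ± 0.19 at 3 h and −0.52 ± 0.19 at 1 h. The glycerol kinase gene Gk2 had 12.7, 9.36 and 14.005 CPM after TBI and 31.5, 37.8 and 30.9 CPM in shams at 3 h, with a change of −0.96 ± 0.23 (adjusted p = 0.046, 1 of 12 fits). At 1 h it averaged 35.3 ± 1.98 CPM after TBI and 49.99 ± 1.96 CPM in shams (SD, n = 3 each), and although these groups did not overlap, the effect of −0.50 ± 0.16 did not pass (adjusted p = 0.056).

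wgn, a receptor for the fly tumour necrosis factor Eiger, was 21.3, 22.4 and 20.4 CPM after TBI and 38.7, 37.7 and 35.0 CPM in shams at 3 h, and 32.8, 34.8 and 30.4 CPM after TBI and 34.7, 33.1 and 39.0 CPM in shams at 1 h. The groups overlapped at 1 h and were apart at 3 h, with a change of −0.67 ± 0.13 (adjusted p = 0.0135, 10 of 12 fits). stumps, an adaptor of the fibroblast growth factor receptors, changed by −1.16 ± 0.26 (adjusted p = 0.0365, 3 of 12 fits), with effects of −1.14 ± 0.19 at 3 h and 0.02 ± 0.18 at 1 h. Rchy1, an E3 ubiquitin ligase gene, changed by −1.10 ± 0.22 (adjusted p = 0.0205, 8 of 12 fits), with effects of −1.42 ± 0.16 at 3 h and −0.32 ± 0.16 at 1 h.

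The sums of the fat body markers after TBI, given above, did not overlap those of shams at either time. The sums of the 4 glial markers did overlap. They were 666 to 855 CPM after TBI and 587 to 860 CPM in shams at 3 h. At 1 h they were 796 to 818 CPM after TBI and 777 to 967 CPM in shams. The single glial regulator repo was lower after TBI at both times by nearly the same amount. repo had 11.6, 14.7 and 14.8 CPM after TBI and 31.5, 30.3 and 26.0 CPM in shams at 3 h, and 10.6, 15.1 and 13.8 CPM after TBI and 24.6, 26.4 and 32.3 CPM in shams at 1 h. Its change was −0.02 ± 0.20, with a 95% confidence interval of −0.43 to 0.39. Of 20 measured fat body genes none passed for the change, with a median of 0.05, and 6 were lower after TBI at 3 h and 2 at 1 h. Since 0.680% of all genes passed for the change, none of 20 is near the share over all genes. Of 18 measured glial genes 1, ana, passed for the change, with a median of −0.37, and 6 were lower and 3 higher at 3 h while 2 were lower and 3 higher at 1 h. Over all genes 6.00% were lower and 10.5% higher at 3 h, and 2.41% lower and 4.98% higher at 1 h. The part of fat body or glial RNA in the falls larger at 3 h was not tested.

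Among the rises larger at 3 h, CG5687 had the smallest p (chromosome 3L, 1933633 to 1939103, minus strand; an exon of another gene overlaps it on the same strand). It had 277, 232 and 225 CPM after TBI at 3 h, against 46.8, 56.2 and 36.9 CPM in shams, and 51.5, 57.6 and 64.1 CPM after TBI at 1 h, against 32.5, 44.9 and 56.9 CPM in shams. The TBI samples at 3 h stood far above all others, and the 1 h groups overlapped. The change was 2.02 ± 0.28 (adjusted p = 0.000448). CG34396 averaged 27.3 ± 2.66 CPM after TBI and 6.96 ± 0.519 CPM in shams at 3 h, and 9.81 ± 1.04 CPM after TBI and 6.68 ± 0.910 CPM in shams at 1 h (SD, n = 3 each), a change of 1.42 ± 0.26 (adjusted p = 0.00968). CG3168, of the SV2-like transporter type, had 430, 434 and 372 CPM after TBI and 168, 151 and 145 CPM in shams at 3 h, and its change was 1.11 ± 0.18 (adjusted p = 0.00275). CG3168, tnc, Lapsyn, CG7246, CG13252 and CG12768 lie outside the naming rule and were chosen after their values were seen, because they passed in every fit.

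The next 5 genes, of cell adhesion, the actin cytoskeleton or cytokinesis, were picked from the 73 after their values were seen, apart from rhea, and stand for no list. tnc, which encodes an extracellular integrin ligand (chromosome 3R, 24984384 to 25022867, plus strand), had 143, 122 and 110 CPM after TBI at 3 h, against 40.4, 46.6 and 38.6 CPM in shams. The 1 h samples had 42.4, 38.6 and 39.9 CPM after TBI, against 28.5, 33.4 and 32.5 CPM in shams. The groups did not overlap at either time, and the gap widened by 1.22 ± 0.20 (adjusted p = 0.0034).

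rhea encodes talin, which ties integrins to actin. Its level was 677, 697 and 647 CPM after TBI and 338, 347 and 312 CPM in shams at 3 h, and 336, 340 and 377 CPM after TBI and 252, 303 and 336 CPM in shams at 1 h. The change was 0.78 ± 0.18 (adjusted p = 0.0411, 2 of 12 fits). Fim, which encodes the actin bundling protein fimbrin, passed for the TBI effect at both times, 1.04 ± 0.09 at 3 h and 0.42 ± 0.09 at 1 h, and for the change (0.62 ± 0.12, adjusted p = 0.0167, 9 of 12 fits). The gene capt, which encodes the actin monomer binding cyclase-associated protein, also passed at both times, 1.02 ± 0.09 at 3 h and 0.50 ± 0.09 at 1 h, with a change of 0.52 ± 0.13 (adjusted p = 0.0471, 2 of 12 fits). pbl, a gene needed for cytokinesis, had 46.6, 47.4 and 48.8 CPM after TBI and 20.4, 21.6 and 20.3 CPM in shams at 3 h, with a change of 0.99 ± 0.20 (adjusted p = 0.0195, 10 of 12 fits). Of 25 measured genes in a list of core actin regulators, which holds none of these, 0 passed for the change, while 19 were higher after TBI at 3 h and 12 at 1 h. Their median change was 0.28. Of all genes 0.680% passed for the change, so 0 of 25 is near that share. Over all genes 10.5% were higher at 3 h and 4.98% at 1 h.

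Ribosome biogenesis held 5 of the 73 genes, and no other of the 41 lists held more than 1. In 10 of the 12 fits that left out 1 library it held 0 or 1, while the lists of glia, of TGF-beta and BMP and of glycolysis held 1 in each. Ribosome biogenesis is the assembly of ribosomal subunits in the nucleolus, where ribosomal RNA is transcribed, cut and chemically modified. The shares higher after TBI over all genes were 10.5% at 3 h and 4.98% at 1 h. Of 30 measured genes of the list, 23 were higher after TBI at 3 h, with a median effect of 0.65, and 1 at 1 h, with a median of −0.13. For the change, 5 passed, all positive, beside 0.680% of all genes. Of the 30, 28 were above 0 and the median was 0.70, beside 53.8% of all genes above 0 and a median of 0.03. The summed level of the 30 genes was 1121, 1196 and 932 CPM after TBI at 3 h, against 798, 863 and 728 CPM in shams. At 1 h it was 701, 730 and 794 CPM after TBI, against 670, 705 and 757 CPM in shams, and uninjured controls had 700, 709 and 740 CPM. The TBI samples at 3 h were above all 12 others, and the other groups overlapped.

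The genes that passed serve different steps. Nop56, a core protein of the box C/D particles that methylate ribosomal RNA (chromosome 3R, 22419095 to 22421068, minus strand), had 40.5, 41.7 and 26.5 CPM after TBI and 14.7, 16.2 and 11.7 CPM in shams at 3 h, and 9.91, 10.0 and 11.4 CPM after TBI and 11.7, 12.9 and 11.2 CPM in shams at 1 h. The change was 1.54 ± 0.34 (adjusted p = 0.0311, 2 of 12 fits). Nop60B, the pseudouridine synthase of the box H/ACA particles, had 42.8, 42.4 and 34.1 CPM after TBI and 15.9, 18.1 and 13.9 CPM in shams at 3 h, and 11.7, 9.98 and 9.82 CPM after TBI and 11.3, 11.9 and 10.6 CPM in shams at 1 h. Its change was 1.42 ± 0.31 (adjusted p = 0.0259, 4 of 12 fits). For both genes the 1 h groups overlapped and every TBI sample at 3 h was above every sham.

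Nopp140, a nucleolar phosphoprotein that associates with both kinds of particle, changed by 0.81 ± 0.19 (adjusted p = 0.0411, 1 of 12 fits). Mys45A, the counterpart of yeast Sda1 in large subunit assembly, changed by 1.06 ± 0.24 (adjusted p = 0.0367, 3 of 12 fits), and Nnp-1, a nucleolar protein gene beyond the 4 that the naming rule takes from a list, by 0.53 ± 0.13 (adjusted p = 0.047, 1 of 12 fits). Genes of the list with larger changes than these did not all pass. nop5, the partner of Nop56 in the box C/D particle, had 35.8, 35.2 and 25.1 CPM after TBI and 11.3, 15.1 and 9.90 CPM in shams at 3 h, and a change of 1.61 ± 0.43 (adjusted p = 0.0947). Fib, the methyltransferase fibrillarin, had a change of 1.28 ± 0.37 (adjusted p = 0.119).

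Further genes of ribosomal RNA processing or ribosome assembly among the 73 lie outside the list. All but U3-55K were named after their values were seen, from no fixed list, and they add nothing to its count. U3-55K, a protein of the U3 particle that guides early cuts of ribosomal RNA, had 5.90, 5.68 and 4.22 CPM after TBI and 1.99, 2.75 and 2.12 CPM in shams at 3 h, and 1.92, 2.13 and 2.00 CPM after TBI and 2.49, 2.28 and 2.69 CPM in shams at 1 h. Its change was 1.51 ± 0.32 (adjusted p = 0.0228, 4 of 12 fits). Noc2, which acts in large subunit export, changed by 1.00 ± 0.23 (adjusted p = 0.0411, 3 of 12 fits), and l(2)k09022, a counterpart of yeast Utp10, by 1.26 ± 0.29 (adjusted p = 0.0411, 2 of 12 fits). The helicase genes kz and CG32344 changed by 0.73 ± 0.17 (adjusted p = 0.0375, 3 of 12 fits) and 0.85 ± 0.20 (adjusted p = 0.047, 2 of 12 fits), and the exosome subunit gene Ski6 by 1.71 ± 0.41 (adjusted p = 0.047, 2 of 12 fits).

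The proteins of the ribosome itself were a separate list. Of 83 measured cytosolic ribosomal protein genes 0 passed for the change, beside 0.680% of all genes, so that 0 is near the share over all genes. After TBI 1 of them was higher at 3 h and 0 at 1 h, beside 10.5% of all genes at 3 h and 4.98% at 1 h, and the median change was 0.17. Myc, the transcription factor best known for driving ribosome production, was the list member that was already higher at 1 h. Its effect was 1.28 ± 0.25 at 3 h and 1.35 ± 0.25 at 1 h, with a change of −0.07 that did not pass.

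**Figure D2:**
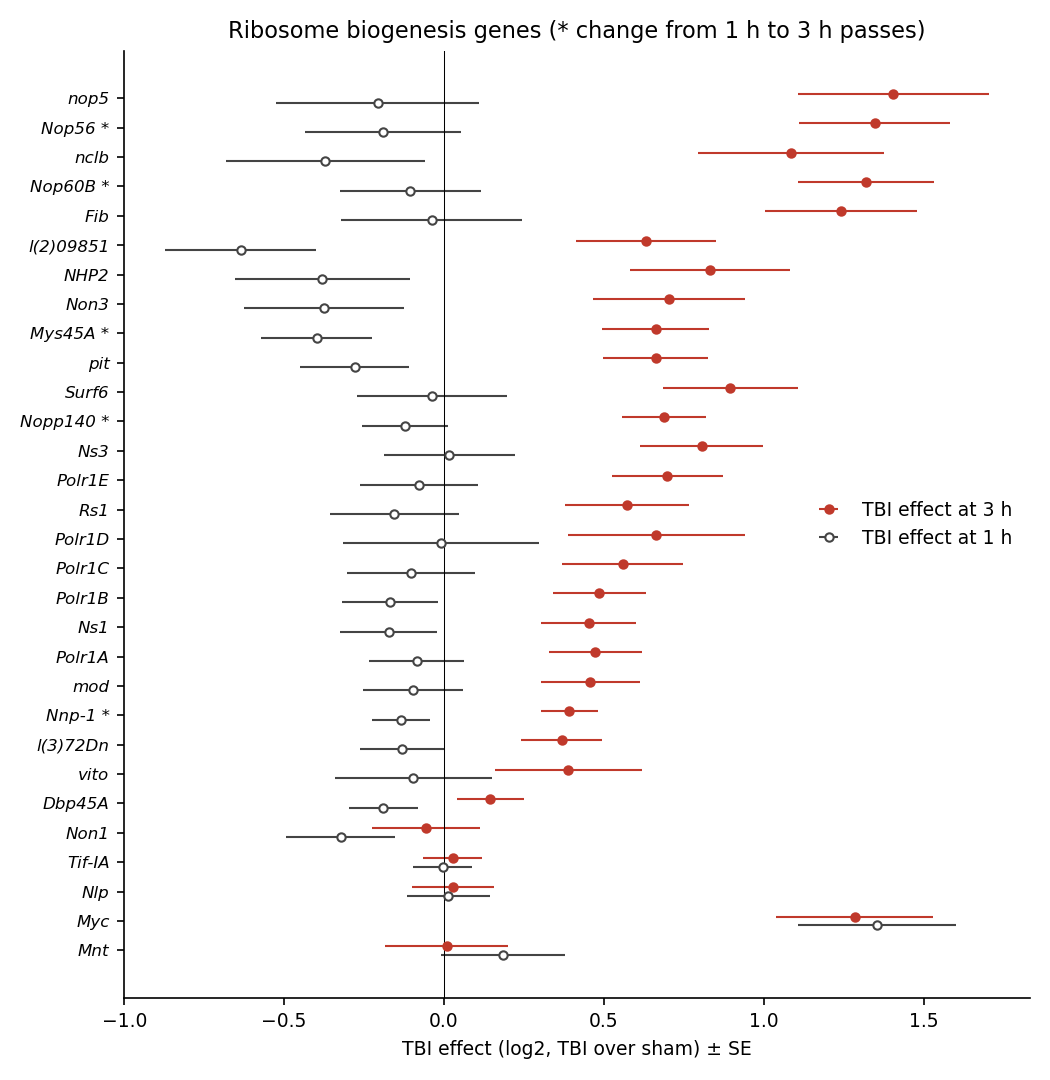
TBI effect (log2 of TBI over sham, with SE) at 3 h (filled) and 1 h (open) for the 30 measured ribosome biogenesis genes, ordered by the change between the times; asterisks mark the 5 that passed. The filled points of 23 genes passed as higher after TBI, while only Myc did so at 1 h.

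The count of 5 rested on single libraries and on the tool, with 9 by DESeq2. It was 6 without TBI 3 h replicate 3, 5 without sham 3 h replicate 2, and 1 without TBI 1 h replicate 1, without TBI 1 h replicate 3, without sham 1 h replicate 1 or without sham 1 h replicate 3. It was 0 without any one of TBI 3 h replicates 1 and 2, sham 3 h replicates 1 and 3, TBI 1 h replicate 2 and sham 1 h replicate 2. The median change of the list stayed between 0.62 and 0.84 in these fits.

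The largest positive changes belonged to genes of low level in shams. Cdc6, which loads the replicative helicase onto origins of replication (chromosome 3L, 8631509 to 8634069, minus strand), had 13.6, 17.7 and 28.7 CPM after TBI at 3 h, against 0.431, 0.557 and 1.30 CPM in shams. The 1 h samples had 16.1, 9.93 and 5.66 CPM after TBI, against 5.38, 4.83 and 3.65 CPM in shams. The TBI groups overlapped between the times, and the shams were apart. The change of 3.49 ± 0.71 (adjusted p = 0.0205, 9 of 12 fits) came from 0.93 in TBI flies at 3 h over 1 h (adjusted p = 0.208) and −2.56 in shams (adjusted p = 0.0328). Of 24 measured replication and cell cycle genes Cdc6 was the one that passed for the change, beside 0.680% of all genes. The median change of the 24 was 0.24, beside 0.03 over all genes.

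mesh, a protein of the smooth septate junctions of gut and Malpighian tubule, had 10.5, 12.9 and 18.7 CPM after TBI and 0.763, 1.03 and 1.20 CPM in shams at 3 h. At 1 h it had 8.16, 3.70 and 2.37 CPM after TBI and 2.01, 1.90 and 1.25 CPM in shams, so that TBI replicate 1 was high beside the other TBI samples. The change was 2.33 ± 0.54 (adjusted p = 0.0411, 1 of 12 fits). CG8646 had 23.9, 21.7 and 18.8 CPM after TBI and 2.29, 3.14 and 2.09 CPM in shams at 3 h, and 10.4, 5.72 and 6.202 CPM after TBI and 2.89, 2.12 and 3.62 CPM in shams at 1 h, with a change of 1.75 ± 0.37 (adjusted p = 0.022, 6 of 12 fits). It was above sham at both times, and TBI replicate 1 was again the highest at 1 h. Erasp changed by 2.69 ± 0.57 (adjusted p = 0.0226, 6 of 12 fits), with 6.13, 7.202 and 3.12 CPM after TBI and 1.33, 1.71 and 0.443 CPM in shams at 3 h and overlapping groups at 1 h. The digestive tract markers, near 0 in all libraries, summed to 2.90 to 7.88 CPM after TBI and 1.02 to 5.06 CPM in shams at 3 h, and to 1.16 to 2.05 CPM after TBI and 2.36 to 3.16 CPM in shams at 1 h, and their part in these changes was not tested.

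On chromosome 2R, 3 genes on the plus strand overlap the span of CG1688, which is on the minus strand from 9766364 to 9806875. asRNA:CR44205 (9766348 to 9767514) had 7.77, 8.83 and 9.96 CPM after TBI and 0.497, 0.318 and 0.380 CPM in shams at 3 h, and 7.98, 4.76 and 3.61 CPM after TBI and 3.15, 1.63 and 0.864 CPM in shams at 1 h. Replicate 1 was the highest of both 1 h groups. Its change was 2.89 ± 0.66 (adjusted p = 0.0375, 2 of 12 fits). CG1698, a predicted neurotransmitter transporter gene (9793326 to 9798006), had 4.86, 5.57 and 8.04 CPM after TBI and 1.46, 1.43 and 0.949 CPM in shams at 3 h, and 2.56, 1.47 and 1.51 CPM after TBI and 1.18, 1.30 and 2.30 CPM in shams at 1 h. Its change was 2.11 ± 0.47 (adjusted p = 0.0342, 5 of 12 fits). The third, asRNA:CR44207 (9775110 to 9776370), had a value of 2.97 ± 0.93 that did not pass (adjusted p = 0.174), and CG1688 itself had 0.13 ± 0.14 (adjusted p = 0.805). How reads of the overlapping exons here were assigned is not known.

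**Figure D3:**
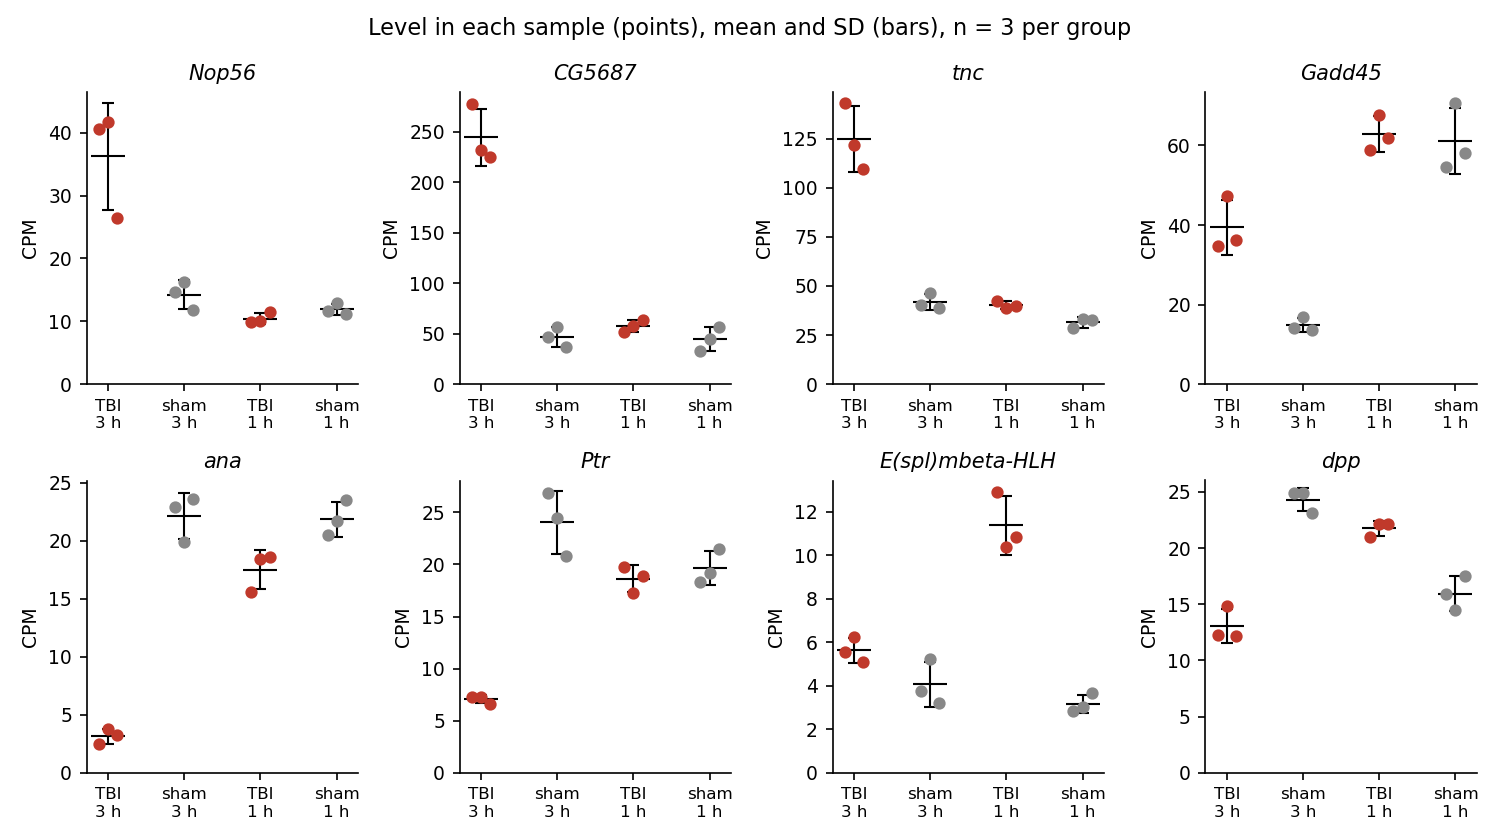
Level (CPM, vertical axis from 0) in each sample of the 4 groups for 8 genes, with the mean (line) and SD (bars) of 3 samples; red points are TBI and grey points sham. Nop56, CG5687 and tnc were high in TBI samples at 3 h alone, ana and Ptr were low there alone, and in Gadd45 the shams differ between the times.

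In 66 of the 73 genes the TBI samples moved more between 1 h and 3 h than the shams, and in 7 the shams moved more. The 7 were Gadd45, Cdc6, Sidpn, AdoR, gfzf (2 of 12 fits), asRNA:CR44205 and lncRNA:CR44493. Gadd45, a stress response gene of the Gadd45 family (chromosome 2R, 7249161 to 7250655, plus strand), had 34.7, 47.3 and 36.2 CPM after TBI at 3 h, against 14.2, 16.8 and 13.7 CPM in shams. The 1 h samples had 58.8, 67.7 and 61.9 CPM after TBI and 54.7, 70.5 and 58.2 CPM in shams, against 13.1, 12.5 and 15.2 CPM in uninjured controls. TBI and sham flies overlapped at 1 h, both far above the controls, and at 3 h the shams overlapped the controls while the TBI samples did not. Levels in shams at 1 h were 2.17 higher than in controls (log2, adjusted p = 5.5e-07), a comparison in which 0.438% of all genes passed, 0.391% higher and 0.0466% lower, and they fell by 2.04 in shams at 3 h over 1 h (adjusted p = 1.85e-06), while they fell by 0.67 in TBI flies (adjusted p = 0.0276). The change was 1.36 ± 0.28 (adjusted p = 0.0205, 8 of 12 fits).

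Sidpn, a transcriptional repressor of the bHLH-Orange family, went the other way. It had 22.5, 20.6 and 20.8 CPM after TBI and 33.4, 27.7 and 29.7 CPM in shams at 3 h, and 17.9, 19.5 and 23.6 CPM after TBI and 12.9, 17.6 and 15.2 CPM in shams at 1 h. The shams at 3 h over 1 h were 0.99 higher (adjusted p = 0.000213) and the TBI flies 0.07 (adjusted p = 0.83), giving a change of −0.92 ± 0.19 (adjusted p = 0.0211, 9 of 12 fits). AdoR, the adenosine receptor gene, had 14.1, 14.9 and 11.9 CPM after TBI and 6.30, 7.04 and 7.24 CPM in shams at 3 h, with a change of 0.76 ± 0.18 (adjusted p = 0.047, 2 of 12 fits). At 1 h it had 13.3, 9.52 and 10.2 CPM after TBI and 9.01, 9.61 and 9.54 CPM in shams, and these groups overlapped. Over all genes, 978 (9.11%) passed between TBI at 3 h and TBI at 1 h, 557 higher (5.19%) and 421 lower (3.92%) at 3 h. Between the shams at these times 52 (0.484%) passed, 18 higher (0.168%) and 34 lower (0.317%). The first of these counts was 504 without TBI 3 h replicate 1, 564 without TBI 1 h replicate 2 and 633 without TBI 1 h replicate 1, and the second 20 without sham 3 h replicate 1, 33 without sham 3 h replicate 2 and 21 without sham 1 h replicate 1 or without sham 1 h replicate 2.

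Rises larger at 1 h were fewer. E(spl)mbeta-HLH, a repressor gene that Notch signalling switches on (chromosome 3R, 26005046 to 26006023, minus strand), had 5.56, 6.26 and 5.12 CPM after TBI at 3 h, against 3.75, 5.21 and 3.23 CPM in shams. The 1 h samples had 12.9, 10.4 and 10.8 CPM after TBI, against 2.84, 3.04 and 3.65 CPM in shams. The groups were far apart at 1 h and overlapped at 3 h, with a change of −1.36 ± 0.28 (adjusted p = 0.0205, 9 of 12 fits). Of 7 measured genes of the Notch pathway and its E(spl) targets it was the one that passed, beside 0.680% of all genes. The median change of the 7 was −0.82. After TBI 1 was higher and 3 lower at 3 h, beside 10.5% and 6.00% of all genes. At 1 h 2 were higher and 1 lower, beside 4.98% and 2.41%. E(spl)m3-HLH was higher after TBI at both times, 1.22 ± 0.37 at 3 h and 2.16 ± 0.38 at 1 h, with a change of −0.94 ± 0.53 that did not pass (adjusted p = 0.599).

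The immediate-early list held 1 gene that passed, also with a negative change, beside 0.680% of all genes passing. Over all genes, 10.5% were higher after TBI at 3 h and 4.98% at 1 h. Of 14 measured genes of the list 3 were higher after TBI at 3 h and 9 at 1 h, with median effects of 0.27 at 3 h and 0.83 at 1 h. Their summed level was 1675, 1949 and 1649 CPM after TBI at 3 h, against 1522, 1267 and 1314 CPM in shams, and 4369, 4628 and 4598 CPM after TBI at 1 h, against 2621, 2692 and 2553 CPM in shams. Controls had 1959, 1227 and 2119 CPM, so the shams at 1 h were also above them. CG17778 passed, with 22.1, 25.4 and 27.4 CPM after TBI and 25.0, 24.3 and 31.0 CPM in shams at 3 h, and 56.4, 73.8 and 59.7 CPM after TBI and 35.8, 38.2 and 34.0 CPM in shams at 1 h. Its change was −0.91 ± 0.20 (adjusted p = 0.0311, 4 of 12 fits). The median change of the list was −0.60, and 3 of the 14 genes were above 0. Hr38 and sr changed little, by −0.18 ± 0.54 and −0.15 ± 0.44. The changes of luna and CrebA were positive, 0.63 ± 0.23 and 0.67 ± 0.33. None of these passed.

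hry, the repressor gene hairy, lay just outside the threshold. It had 96.4, 109 and 83.4 CPM after TBI and 62.6, 57.2 and 60.4 CPM in shams at 3 h, and 219, 203 and 185 CPM after TBI and 32.8, 33.4 and 32.6 CPM in shams at 1 h, with a change of −1.94 ± 0.47 (adjusted p = 0.0513). The genes nearest to it inside the threshold were RNF220, CG12499 and mtDNA-helicase, with changes of 1.15, 0.92 and 1.31 and adjusted p of 0.0489 to 0.0494. Of the 12 fits RNF220 passed in 1, CG12499 in 3 and mtDNA-helicase in 0. Just outside with hry were CG18302 and pths, with changes of −1.30 and 0.70 (adjusted p = 0.0513 each).

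The other rises larger at 1 h were Usp1, CG11791 (2 of 12 fits), Cad96Ca, eyg, Pino (1 of 12 fits) and kibra. Usp1, a deubiquitinase gene, had 102, 107 and 103 CPM after TBI and 87.9, 72.1 and 81.7 CPM in shams at 3 h, and 257, 191 and 216 CPM after TBI and 119, 108 and 93.6 CPM in shams at 1 h. It stayed above sham at both times, with a change of −0.68 ± 0.15 (adjusted p = 0.0309, 5 of 12 fits). Cad96Ca, a receptor tyrosine kinase that acts in epidermal wound repair, had effects of −0.01 ± 0.08 at 3 h and 0.51 ± 0.08 at 1 h and a change of −0.52 ± 0.12 (adjusted p = 0.0375, 3 of 12 fits). eyg, a Pax transcription factor gene, had effects of −0.22 ± 0.14 at 3 h and 0.66 ± 0.15 at 1 h and a change of −0.88 ± 0.20 (adjusted p = 0.0382, 3 of 12 fits).

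The 3 falls larger at 1 h were disco, CG3032 and Duox, and of these disco alone was still below sham at 3 h. disco, a zinc finger transcription factor gene, had 11.2, 10.5 and 10.3 CPM after TBI and 13.7, 13.6 and 15.2 CPM in shams at 3 h, and 7.87, 7.09 and 7.39 CPM after TBI and 16.9, 13.5 and 17.4 CPM in shams at 1 h. It was below sham at both times, and the gap narrowed by 0.69 ± 0.15 (adjusted p = 0.0357, 4 of 12 fits). CG3032, with effects of 0.36 at 3 h and −0.98 at 1 h, was at 0.659 to 1.68 CPM in the 12 samples and passed in 1 of 12 fits.

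In 4 genes the TBI effect passed at both times in opposite directions. dpp, the BMP ligand gene (chromosome 2L, 2428372 to 2459823, plus strand), had 12.3, 14.8 and 12.1 CPM after TBI at 3 h, against 24.9, 24.9 and 23.2 CPM in shams. At 1 h it had 21.0, 22.1 and 22.2 CPM after TBI, against 15.9, 14.4 and 17.5 CPM in shams. TBI samples were below every sham at 3 h and above every sham at 1 h, with effects of −0.90 ± 0.14 at 3 h and 0.45 ± 0.14 at 1 h and a change of −1.34 ± 0.19 (adjusted p = 0.000448). With the replicate block its effect at 1 h no longer passed (adjusted p = 0.0525). dpp rose in shams at 3 h over 1 h by 0.61 (adjusted p = 0.0356) and fell in TBI flies by 0.74 (adjusted p = 0.000636). Of 13 measured genes of TGF-beta and BMP signalling it was the one that passed for the change, beside 0.680% of all genes. The median change of the 13 was −0.18, and 2 were above 0, beside 53.8% of all genes. After TBI 4 were lower and 0 higher at 3 h, beside 6.00% and 10.5% of all genes. At 1 h 1 was lower and 1 higher, beside 2.41% and 4.98%.

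Duox, the dual oxidase that makes hydrogen peroxide in barrier tissues (chromosome 2L, 2815970 to 2830248, minus strand), had 36.5, 30.5 and 30.4 CPM after TBI and 24.7, 22.7 and 18.6 CPM in shams at 3 h. The 1 h samples had 7.87, 6.28 and 7.01 CPM after TBI and 12.5, 7.98 and 10.9 CPM in shams. Its effect of 0.56 at 3 h was about as large as that of −0.57 at 1 h. It was higher at 3 h than at 1 h in TBI flies (2.20, adjusted p = 5.5e-09) and in shams (1.07, adjusted p = 0.000728), and the change was 1.14 ± 0.23 (adjusted p = 0.0205, 8 of 12 fits). kibra, an upstream gene of the Hippo growth control pathway, had effects of −0.28 ± 0.09 at 3 h and 0.36 ± 0.09 at 1 h, a change of −0.64 ± 0.13 (adjusted p = 0.0211, 8 of 12 fits). Dus3, a dihydrouridine synthase gene, had 7.37, 6.57 and 6.59 CPM after TBI and 4.21, 4.97 and 5.25 CPM in shams at 3 h, and 2.80, 3.19 and 3.18 CPM after TBI and 4.28, 4.94 and 3.91 CPM in shams at 1 h. Its effects were 0.51 at 3 h and −0.51 at 1 h, the second not passing with the replicate block (adjusted p = 0.0561), and its change was 1.02 ± 0.22 (adjusted p = 0.0226, 7 of 12 fits).

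Of the genes at the head of injury signalling, Ets21C, upd3, kay, puc and Mmp1 were higher after TBI at both times and did not pass for the change. Ets21C, an ETS factor gene activated by JNK, had 77.1, 77.3 and 59.4 CPM after TBI and 2.45, 3.42 and 2.53 CPM in shams at 3 h, and 107, 74.2 and 91.7 CPM after TBI and 5.55, 7.87 and 7.75 CPM in shams at 1 h. Its effect was 4.67 ± 0.25 at 3 h and 3.69 ± 0.24 at 1 h, and the difference of 0.98 had a 95% interval of 0.33 to 1.64 (adjusted p = 0.194). The shams themselves fell by 1.34 on the log2 scale at 3 h over 1 h (adjusted p = 0.00638), and the TBI samples overlapped between the times.

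The JAK/STAT cytokine gene upd3 had 7.47, 6.89 and 5.12 CPM after TBI and 0.199, 0.0398 and 0.158 CPM in shams at 3 h, and 2.62, 2.94 and 2.75 CPM after TBI and 0.350, 0.109 and 0.224 CPM in shams at 1 h. With so few reads in shams, its effects depend on the prior count of the fit. They were 5.51 ± 0.43 at 3 h and 3.54 ± 0.43 at 1 h, with a change of 1.97 (95% interval 0.53 to 3.41, adjusted p = 0.26). The AP-1 gene kay had effects of 0.67 ± 0.15 at 3 h and 1.40 ± 0.15 at 1 h, a change of −0.73 (−1.16 to −0.30, adjusted p = 0.122). For puc, the phosphatase gene that feeds back on JNK, the change was −0.41 (−0.81 to −0.01), and for the matrix metalloproteinase gene Mmp1 0.59 (−0.02 to 1.21). These intervals leave room for changes as large as those of many genes that passed. Of 24 measured genes of JNK and AP-1 signalling wgn alone passed, and of 15 of JAK/STAT signalling none. With 0.680% of all genes passing, none of 15 is near the share over all genes.

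**Figure D4:**
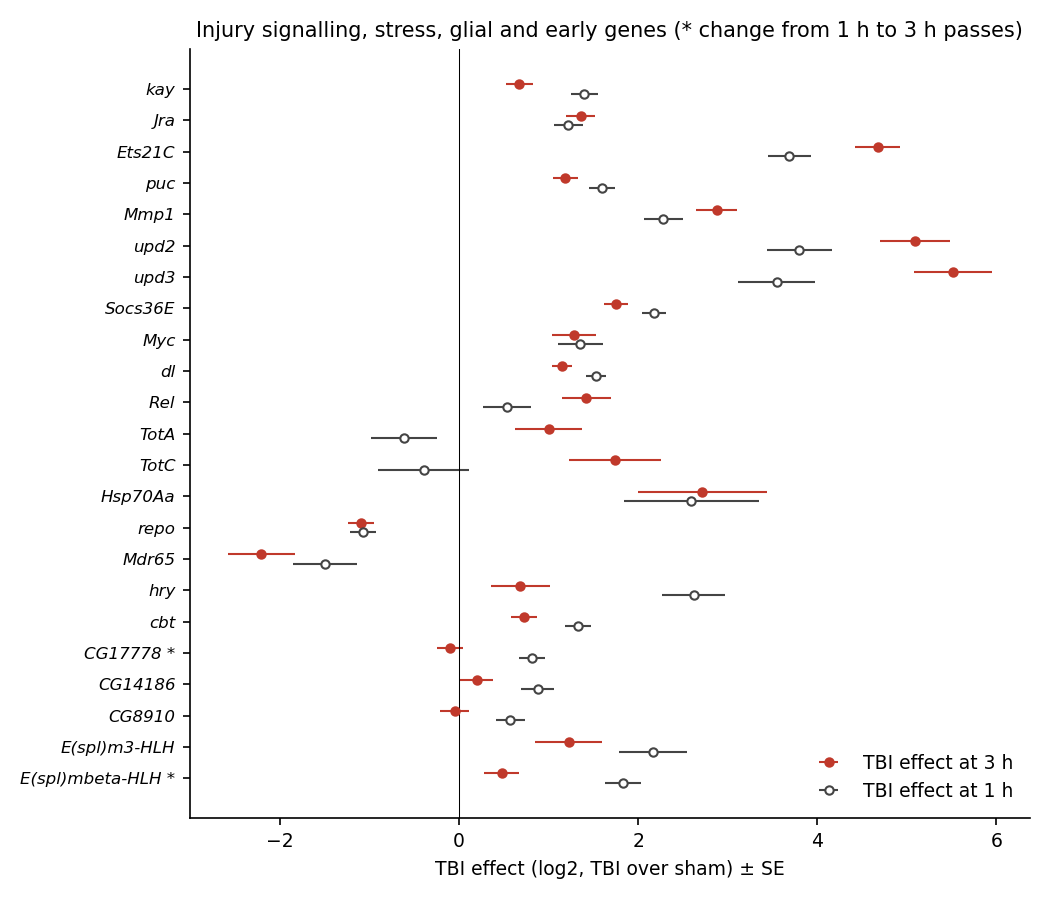
TBI effect (log2 of TBI over sham, with SE) at 3 h (filled) and 1 h (open) for 23 genes of injury signalling, stress, glia, early response and Notch targets; asterisks mark CG17778 and E(spl)mbeta-HLH, which passed for the change. Ets21C, upd2 and upd3 lie far to the right at both times.

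The Turandot stress proteins had some of the largest changes and wide errors. Of 6 measured genes 0 passed for the change, with a median of 2.11. After TBI 0 were higher at 1 h, 3 at 3 h and 6 at each of 6, 12 and 24 h. TotA had 546, 949 and 278 CPM after TBI and 364, 321 and 202 CPM in shams at 3 h, which overlap, and its change was 1.62 ± 0.52 (adjusted p = 0.189). In all, 12 of the 41 lists had a gene that passed for the change, 11 of them a single one, and 29 had none. As only 0.680% of all genes passed, a list with none, the Turandot genes included, is near the share over all genes. Those with none included antimicrobial peptides (33 measured, median 0.64), heat shock and chaperones (19, median 0.53), proteasome (32, median 0.24), neuronal and synaptic genes (22, median −0.18), photoreceptors (20, median 0.07) and the circadian clock (12, median −0.05).

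The effects were also taken from libraries at 6, 12 and 24 h, which the contrast does not use. Since the genes were chosen and sorted by their effects at 3 h and 1 h, a median that is farthest from 0 at the time of sorting follows in part from that choice, and the later values are a description. At 6 h, when 12.1% of all genes passed (7.88% higher and 4.26% lower after TBI), 27 of the 40 genes with a rise larger at 3 h were higher and none lower. Over the times from 1 to 24 h their median effects were −0.11, 1.05, 0.75, 0.49 and 0.40, and 19 were higher at 12 h (4.99% of all genes, 8.62% in either direction) and 13 at 24 h (6.20%, and 8.40% in either direction). pbl stayed high, with effects of 1.40 at 6 h, 1.33 at 12 h and 1.75 at 24 h, and CG5687 did not, with 1.45 at 6 h, −0.03 at 12 h and 0.32 at 24 h. Lapsyn, a leucine-rich repeat protein gene of synapses, was higher at 3 h alone, with 1.05 ± 0.15 at 3 h and 0.04 ± 0.15 at 6 h. The ribosome biogenesis list had 14 of 30 genes higher at 6 h, 11 at 12 h and 9 at 24 h.

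Of the 22 genes with a fall larger at 3 h, 15 were lower at 6 h and none higher, 9 were lower at 12 h (3.63% of all genes) and 7 at 24 h (2.20%). Their median effects over the same 5 times were −0.10, −1.28, −0.78, −0.34 and −0.19. ana was at −1.59 at 6 h and −0.94 at 12 h, both passing, and −0.71 at 24 h, which did not (adjusted p = 0.07). Hex-A was at −0.17 by 6 h (adjusted p = 0.32). Of the 8 genes with a rise larger at 1 h 3 were higher at 6 h, and at 12 and 24 h none was, while Pino was lower at 24 h.

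**Figure D5:**
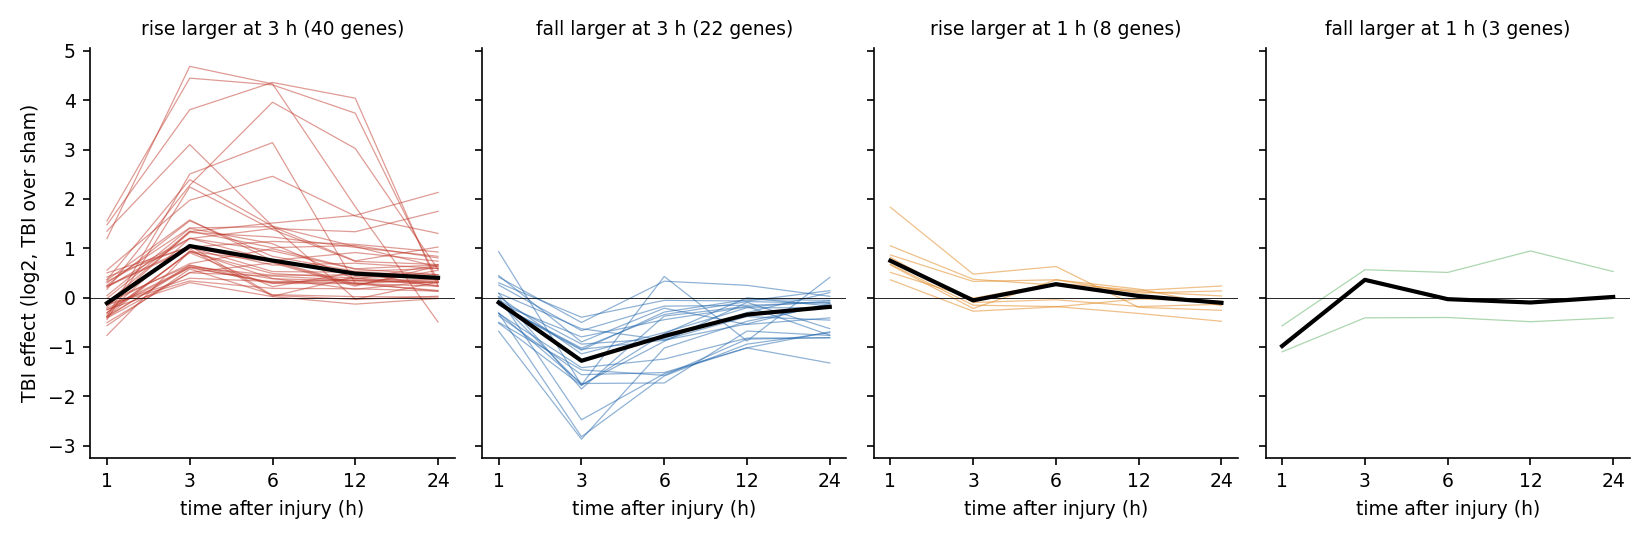
TBI effect (vertical axis, log2 of TBI over sham) at 1, 3, 6, 12 and 24 h (equally spaced) for the 73 genes by class, 1 thin line per gene and the median in black. The 2 classes sorted by a larger effect at 3 h had medians of 1.05 for rises and −1.28 for falls there, and 0.75 and −0.78 at 6 h.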

How the data were processed

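Whole-head polyA RNA was sequenced, and the authors deposited whole-number read counts per gene for all 64 samples. The submitters' processing notes name FastQC, MultiQC, HISAT2, Picard, HTSeq and DESeq2. Versions, the genome build and whether counting used strand are not given. The 5 unassigned read categories stayed out of library sizes and tests, and 74.0% to 78.4% of reads were in genes. Of 17481 gene IDs 17343 were paired with symbols and positions from BDGP6.54, Ensembl release 115.

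The deposited counts were analysed with R 4.3.3 and edgeR 4.0.16: TMM scaling, filterByExpr, and a robust quasi-likelihood fit of 11 groups over the 33 libraries of library day 2. Every contrast was taken from this fit, with Benjamini-Hochberg adjusted p under 0.05 and no minimum fold. SEs are the absolute log2 value over the square root of F. Depth was 18.6 M to 42.4 M gene counts. Since the labels name biological replicates without saying how cohorts were drawn, p-values measure the spread between replicate samples. That spread was estimated per gene over all 11 groups together. A larger spread at 3 h than at 1 h, as in the chi-square values above, was not modelled. Its part in the p-values was not tested. The script was tested on simulated data.

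Named genes were up to 12 per direction with the largest change (among those passing, not overlapping and averaging 2 CPM or more), up to 4 that passed from each of 41 lists, and a set of followed injury genes. Outside this rule, and chosen after their values were seen, are Usp1, CG11791, eyg, Pino, kibra, disco, CG3032, Duox, Dus3, Sidpn, AdoR, gfzf, lncRNA:CR44493, Fim, capt, pbl, Noc2, l(2)k09022, kz, CG32344 and Ski6. The members and lists were chosen with earlier results of these data known. Alternatives were RLE scaling, scaling without the mitochondrial genome, no filter on low counts, DESeq2 1.42.0, the 12 libraries alone, a replicate block, and leaving out each library.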

Additional observations from a re-analysis of the deposited data

Results flagged for a closer look

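The TBI effect differed between 3 h and 1 h in 73 genes by the edgeR test of that difference. In 4 of them the effect passed at both times in opposite directions, though for dpp and Dus3 the 1 h effect did not pass with the replicate block (adjusted p = 0.0525 and 0.0561). dpp was lower after TBI at 3 h and higher at 1 h, with a change of −1.34 on the log2 scale, and kibra did the same with a change of −0.64. Duox was higher after TBI at 3 h and lower at 1 h, with a change of 1.14, and so was Dus3, with a change of 1.02. With 3 samples a group, no single sample was tested for standing apart from its group.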

How the results depend on the processing

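The count of 73 genes was 68 with RLE scaling, 68 without the mitochondrial genome and 63 with the 12 libraries alone. Without a filter, where more genes are tested, 43 passed, and 132 with DESeq2, which shared 70 of the 73. Positive changes, 43 in the reported fit, numbered 20 with no filter, 66 with DESeq2 and 28 with the 12 libraries alone. Negative changes, 30 in the reported fit, numbered 66 with DESeq2. The 52 genes that differed between sham flies at 3 h and 1 h were 98 with DESeq2 and 34 with the 12 libraries alone. The cause of these shifts was not tested. Leaving out 1 library gave 16 to 81 genes in all, 8 to 59 positive and 8 to 32 negative. It gave 1243 to 1748 for the TBI effect at 3 h, 498 to 823 at 1 h, 504 to 965 between the TBI groups and 20 to 55 between the sham groups. The genes of the 73 that passed at 6 h in the direction of their change numbered 43 in every such fit. That is no test of them, since only 1 h and 3 h libraries were left out. Ribosome biogenesis had 5 genes in the reported fit, 9 with DESeq2, 1 with no filter and 2 with the replicate block. With that block 48 genes passed, 24 of them positive, and 47 were shared with the 73. Over all 4 groups the numbers do not pair the samples: 18 correlations of same-numbered samples ran from −0.53 to 0.74, with 5 above 0.1. All 5 were between TBI and sham at the same time. At 3 h these correlations were −0.309, 0.126 and 0.741. A block that pairs samples within each time only was not fitted, so pairing of that kind was not tested. Between TBI and sham at 1 h all 3 were above 0.1 (0.465, 0.311 and 0.507). There the block gave 761 genes for the TBI effect in place of 794 and ended the 1 h calls of dpp and Dus3, with no other 1 h call changed among the 73. Of single-gene and list values, 1416 were counted as unchanged, 574 no longer passed, 3 newly passed and 77 moved. None changed sign among those that had passed. Unchanged means the same side of the threshold for a gene, and for a list value a shift within a set limit (1.5-fold for counts). The values include genes that did not pass in the reported fit, so 1416 does not measure how stable the 73 are. In all fits run, 13 of the 73 genes passed. At 3 samples a group, genes of a few CPM such as CG3032 and Ski6 carry wide errors.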

Other observations

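Other gene groups had TBI effects that passed at 1 h, 3 h or both, with no gene passing for the change. Over all genes 10.5% were higher and 6.00% lower at 3 h, and 4.98% were higher at 1 h. Of 16 measured genes of annexins, calpains and ESCRT-III, which act in membrane repair, 11 were higher after TBI at 3 h, 7 of which also were at 1 h, and their median change was 0.17. Heat shock and chaperone genes were higher in 10 of 19 at 3 h and 4 of 19 at 1 h. Of 33 measured genes of Toll and Imd signalling, the fly innate immune pathways, 10 were higher at 3 h and 4 at 1 h, with a median change of 0.19. Of 74 nuclear genes of oxidative phosphorylation 2 were higher and 2 lower at 3 h, and 1 was higher at 1 h, all smaller shares than over all genes.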
